A study of Mus musculus with 2 samples.

Results

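MHC class I presentation genes encode the molecules that display fragments of a cell's own proteins on its surface, and the steps that make and load those fragments. The 9 genes described here are B2m, H2-K1, H2-D1, Tap1, Tap2, Tapbp, Psmb8, Psmb9 and Nlrc5. They were chosen by symbol, with no measured value used in the rule, but with earlier results of these data known. They are 9 of 43437 genes in the gene table and 46 of 103615 isoforms in the isoform table. The study compared the telencephalon, the anterior part of the embryonic forebrain, with the whole body of mouse fetuses at E12.5, with 1 RNA-seq library for each. All fetuses were wild-type ICR mice, an outbred stock, without treatment. The number and sex of the fetuses behind each library are not in the labels, nor is it stated whether the head was left on the whole body.

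The values are FPKM, sequenced fragments divided by transcript length and library size, and so a level per length. The low steps of single-isoform genes correspond to about 22732157 mapped fragments in telencephalon and 29347007 in whole body. On a transcript of 2000 bases, 3 fragments are worth 0.0793 FPKM in telencephalon and 0.0609 FPKM in whole body. Because each group is 1 library, there is no replicate error, no test was made and no p-value is given. Intervals are 95% exact binomial intervals of the estimated fragments, scaled by depth, and cover counting error only, since PCR copies were not marked and are not independent molecules. Of 10 telencephalic neural markers 9 were at least 2-fold higher in telencephalon, with a summed level of 1020.4 FPKM there and 48.4 FPKM in whole body. In bulk tissue, fewer cells that express a gene and less RNA per cell cannot be told apart.

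A class I molecule is a heavy chain, encoded by H2-K1 or H2-D1 in the mouse, held by the invariant light chain that B2m encodes. The proteasome cuts proteins into peptides, the Tap1 and Tap2 transporter carries the peptides into the endoplasmic reticulum, and tapasin, from Tapbp, bridges the transporter and the empty class I molecule. Psmb8 and Psmb9 encode catalytic subunits that replace constitutive ones when interferon induces the immunoproteasome, and Nlrc5 encodes the transactivator that drives class I genes together. In the adult brain neurons carry little class I, and class I genes are known for roles in synapse refinement during later development.

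The promoters of the light chain and heavy chain genes are shown because NLRC5 and interferon act on these genes there. Class I promoters carry an SXY module, which binds RFX, CREB/ATF and NF-Y factors, the complex that recruits NLRC5, and upstream of it an interferon response element and a kappa B site. The 250 bases before the start of B2m, H2-K1 and H2-D1, and the stretch of 225 bases between the RefSeq starts of the divergent neighbours Psmb9 and Tap1, are given 5′ to 3′ from RefSeq for GRCm38.p6, the C57BL/6J reference. Positions are chr2:122147437-122147686 on the plus strand for B2m, chr17:34000348-34000597 on the minus strand for H2-K1, chr17:35262844-35263093 on the plus strand for H2-D1 and chr17:34187331-34187555, written on the plus strand, for the shared stretch. Capitals mark, in B2m, H2-K1 and H2-D1, TGACG and ATTGG where they lie 20 bases apart, the interferon response core TTTCNNTT, and the kappa B pattern, GGG and CCC with 5 bases between them. In the shared stretch capitals mark every match to TGACG, to the letters ATTGG or to the kappa B pattern on either strand. Both strands were searched throughout, and no other motif was.
B2m: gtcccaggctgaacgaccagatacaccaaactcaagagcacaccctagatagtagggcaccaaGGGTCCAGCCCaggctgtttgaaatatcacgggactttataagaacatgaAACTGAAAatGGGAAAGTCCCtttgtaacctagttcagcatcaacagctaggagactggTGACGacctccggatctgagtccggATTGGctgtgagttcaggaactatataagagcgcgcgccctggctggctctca
H2-K1: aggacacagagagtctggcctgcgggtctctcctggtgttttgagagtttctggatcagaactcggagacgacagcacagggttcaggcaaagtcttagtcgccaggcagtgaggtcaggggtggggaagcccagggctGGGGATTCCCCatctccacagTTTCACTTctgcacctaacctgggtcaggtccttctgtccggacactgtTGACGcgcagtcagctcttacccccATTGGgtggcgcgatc
H2-D1: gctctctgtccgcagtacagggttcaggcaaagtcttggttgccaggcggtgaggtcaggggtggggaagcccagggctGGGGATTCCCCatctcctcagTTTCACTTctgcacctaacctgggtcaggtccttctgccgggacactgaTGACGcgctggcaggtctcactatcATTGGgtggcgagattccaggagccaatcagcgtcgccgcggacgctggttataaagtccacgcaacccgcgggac
between Psmb9 and Tap1: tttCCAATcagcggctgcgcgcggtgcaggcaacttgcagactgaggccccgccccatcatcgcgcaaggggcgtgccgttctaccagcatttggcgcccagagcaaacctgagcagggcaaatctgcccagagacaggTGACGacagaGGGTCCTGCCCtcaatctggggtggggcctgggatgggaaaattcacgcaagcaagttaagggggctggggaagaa

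TGACG and ATTGG with 20 bases between them, a spacing read from these promoters after they were seen, stood in B2m, H2-K1 and H2-D1, and in 30 of 32851 windows of the same length over all genes (0.0913%). Alone, TGACG was in 17.8% and ATTGG in 33.8% of those windows. The windows of H2-K1 and H2-D1 matched at 166 of 190 aligned bases, so those 2 share most of their letters. The interferon response core was present in all of these 3 and in 21.3% of all windows, and the kappa B pattern in all of these 3 and in 12.2%. Between Psmb9 and Tap1 the letters TGACG and, on the other strand, ATTGG were found, but not at that spacing, and so was 1 kappa B match, while the interferon response core had no match. The 30 windows belong to 26 genes, of which 23 are in the gene table and 19 reached 1 FPKM in either library. Of these 19 genes, 3 were at least 2-fold lower in telencephalon (B2m, Calu and Ibsp) and 1 was at least 2-fold higher (Nrarp), while over all genes measured at that level 21.2% were lower and 9.39% higher, so neither count is above the background. The promoter table used here covers 7 of the 9 genes, without Tap2 and Nlrc5. A match is a description of letters, not evidence of a bound factor.

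Of the 9 class I genes 8 had lower FPKM in telencephalon than in whole body, Psmb9 among them at nearly equal levels. Over all genes of 1 FPKM or more the median log2 ratio was -0.16, and over all genes without that floor it was 0. The share of all genes with a lower FPKM in telencephalon was not computed. The count of 8 is therefore not read as a result about the members. B2m was 10.2-fold lower, Tap2 and Psmb8 were 5.78-fold and 4.32-fold lower at low levels, and H2-K1, H2-D1, Tap1 and Tapbp were between 1.78-fold and 2.10-fold lower. Psmb9 and Nlrc5 did not exceed 0.346 FPKM in either library. The highest member in telencephalon was H2-D1 at 9.61 FPKM, followed by Tapbp at 7.451, H2-K1 at 7.445 and B2m at 5.95 FPKM. In whole body B2m led at 60.9 FPKM, ahead of H2-D1, H2-K1 and Tapbp. The summed FPKM of the 9 genes was 32.5 in telencephalon and 114 in whole body.

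Ratios are given as the log2 of FPKM + 1 in telencephalon over FPKM + 1 in whole body, a scale that understates the difference of weak genes, while folds are ratios of FPKM. Counts of genes at least 2-fold lower or higher use the log2 scale and leave out genes below 1 FPKM in both libraries, so H2-K1, 2.10-fold lower in FPKM, is not among them at -0.98. Of the 9 genes 6 reached 1 FPKM in either library. Among these 6, B2m and Psmb8 were at least 2-fold lower and none was at least 2-fold higher. Over all 14987 genes that reached 1 FPKM, 21.2% were at least 2-fold lower and 9.39% at least 2-fold higher, so 2 of 6 is not a result about the members. A gene that reaches 1 FPKM only in whole body, as Tap1 and Psmb8 do, enters such a count through the library where it is high, which holds for the counts of every list. The median log2 ratio was -0.82 over the 9 members and -0.93 over the 6, and -0.16 over all genes of 1 FPKM or more. Rescaled to TPM, the median of all genes was -0.02 and that of the measured members -0.87, so the gap to all genes was of similar size.

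**Figure D1:**
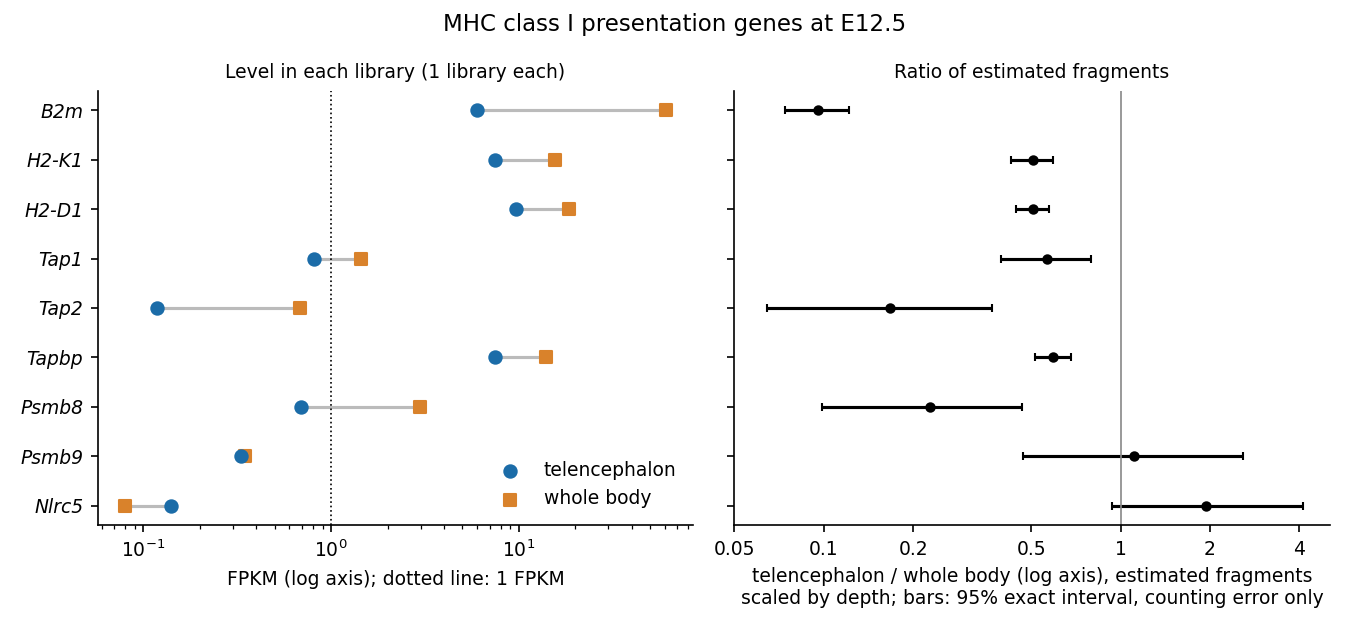
FPKM of the 9 genes on a log axis (left; circles, telencephalon; squares, whole body) and the ratio of estimated fragments, telencephalon over whole body, scaled by depth, on a log axis (right; bars, 95% exact intervals for counting error in 1 library each). The interval lies below 1 for B2m, H2-K1, H2-D1, Tap1, Tap2, Tapbp and Psmb8 and spans 1 for Psmb9 and Nlrc5.

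B2m (ENSMUSG00000060802, chromosome 2, 122147686 to 122153083, plus strand) showed the largest difference among the members. It stood at 5.95 FPKM in telencephalon and 60.9 FPKM in whole body, a log2 ratio of -3.15 and a 10.2-fold lower level. These values correspond to about 71 fragments in telencephalon and 960 in whole body, and the fragment fold of 10.5 had an interval from 8.22 to 13.5. By level B2m ranked 8582 of 43437 genes in telencephalon and 1220 in whole body. It has 1 annotated isoform, of 860 bases, and all of its 50-base stretches occur in no other annotated transcript, so its value does not depend on dividing reads among isoforms or paralogues.

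The classical heavy chains lay close to each other in both libraries and differed between the libraries by about 2-fold. H2-K1 (ENSMUSG00000061232, chromosome 17, 33996017 to 34000347, minus strand) stood at 7.44 FPKM in telencephalon and 15.6 FPKM in whole body, 2.10-fold lower, with a log2 ratio of -0.98, which became -1.06 and past 2-fold when 0.1 FPKM was added in place of 1. H2-D1 (ENSMUSG00000073411, chromosome 17, 35262730 to 35267499, plus strand) stood at 9.61 FPKM in telencephalon and 18.4 FPKM in whole body, 1.92-fold lower, with a log2 ratio of -0.87. Both fragment folds came to 1.98, with intervals from 1.68 to 2.34 for H2-K1 and from 1.75 to 2.24 for H2-D1. These intervals do not overlap that of B2m. H2-D1 was 1.29 times H2-K1 in telencephalon and 1.18 times in whole body.

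Reads of the heavy chains can be hard to assign. Of the 50-base stretches, 89.8% for H2-K1 and 87.2% for H2-D1 occur in no other gene. Stretches are shared with 25 genes for H2-K1 and with 168 for H2-D1. The genes with the most shared stretches are H2-Q10, H2-D1 and H2-Q7 for H2-K1, and H2-Q1, H2-K1 and H2-Q7 for H2-D1. ICR mice can also carry H2 alleles that differ from the C57BL/6J reference, and how that affected the mapping was not tested.

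Within a library, the light chain and the classical heavy chains stood in different proportion. B2m amounted to 0.349 times the summed FPKM of H2-K1 and H2-D1 in telencephalon and to 1.79 times that sum in whole body, 5.12-fold apart. The heavy chain sum was 17.1 FPKM in telencephalon and 34.1 FPKM in whole body. This ratio is formed inside each library, so scaling by depth does not enter it, and it has no replicate check.

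**Figure D2:**
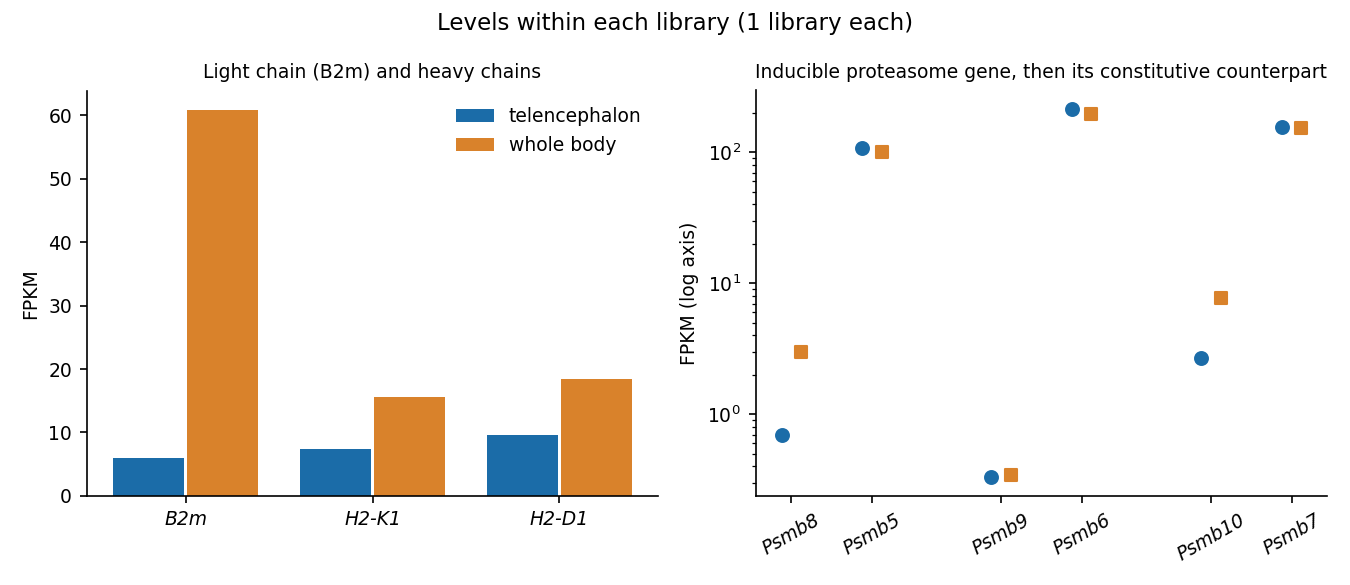
FPKM of the light chain gene B2m and of the heavy chains H2-K1 and H2-D1 on a linear axis (left; telencephalon bar left of the whole-body bar), and of inducible proteasome genes beside their constitutive counterparts on a log axis (right; circles, telencephalon; squares, whole body), with 1 library each. B2m is the lowest of the 3 in telencephalon at 5.95 FPKM and the highest in whole body at 60.9 FPKM, and Psmb8, Psmb9 and Psmb10 lie far below Psmb5, Psmb6 and Psmb7 in both libraries.

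The peptide transporter genes were weak in both libraries. Tap1 (ENSMUSG00000037321, chromosome 17, 34187553 to 34197225, plus strand) stood at 0.813 FPKM in telencephalon and 1.45 FPKM in whole body, 1.78-fold lower, on about 49 fragments in telencephalon and 112 in whole body. Tap2 (ENSMUSG00000024339, chromosome 17, 34203527 to 34216321, plus strand) stood at 0.119 FPKM in telencephalon and 0.685 FPKM in whole body, 5.78-fold lower. Tap2 rested on about 7 fragments in telencephalon and 54 in whole body, and its fragment fold of 5.98 has an interval from 2.71 to 15.6. The transporter is a heterodimer of both proteins, and Tap1 was 6.86 times Tap2 in telencephalon and 2.11 times in whole body. The interval of Tap1, from 1.25-fold to 2.53-fold lower, does not overlap that of Tap2. Exons of Tap2 overlap the opposite-strand gene Gm15821, at 0.151 FPKM in telencephalon and 0.038 FPKM in whole body. Of the 50-base stretches of Tap2, 88.4% occur in no other gene and 9.2% are shared with Gm15821. The library kit does not mark strand, and how the division of reads affected the values of Tap2 was not tested.

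Tapbp (ENSMUSG00000024308, chromosome 17, 33915899 to 33929292, plus strand), the gene of tapasin, had more RNA than either transporter gene. It stood at 7.451 FPKM in telencephalon and 13.9 FPKM in whole body, 1.87-fold lower, with a log2 ratio of -0.82. Its coding isoform of 2898 bases had 4.75 FPKM in telencephalon and 7.75 FPKM in whole body. Only 76.7% of its 50-base stretches are its own, and 21.3% are shared with the antisense gene Gm19412, which the library kit cannot separate because it does not mark strand. Gm19412 stood at 0.879 FPKM in telencephalon and 2.64 FPKM in whole body. Exons of Zbtb22 on the same strand also overlap Tapbp, and Zbtb22 stood at 21.1 FPKM in telencephalon and 16.2 FPKM in whole body. How the division of reads affected the values of Tapbp was not tested.

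Genes of peptide loading and protein folding in the endoplasmic reticulum, at levels from weak to abundant, were lower in telencephalon as well. Of 10 genes of peptide loading and glycoprotein folding, 9 reached 1 FPKM, and 5 of them were at least 2-fold lower and none at least 2-fold higher. The shares over all genes of 1 FPKM or more were 21.2% lower and 9.39% higher. The median log2 ratio over the 10 genes was -0.96. Calr, the gene of the chaperone calreticulin, stood at 139.8 FPKM in telencephalon and 299.9 FPKM in whole body. Hspa5, a general folding chaperone of the same compartment, stood at 81.3 FPKM in telencephalon and 203 FPKM in whole body. Erap1, which trims peptides to the length that class I binds, stood at 0.287 FPKM in telencephalon and 2.81 FPKM in whole body. The summed level of the 10 genes was 476 FPKM in telencephalon and 955 FPKM in whole body.

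The inducible proteasome subunits were a small fraction of the proteasome RNA in both libraries. Psmb8 (ENSMUSG00000024338, chromosome 17, 34197721 to 34201454, plus strand) stood at 0.692 FPKM in telencephalon and 2.99 FPKM in whole body, 4.32-fold lower, with a log2 ratio of -1.24. It rested on about 9 fragments in telencephalon and 51 in whole body, with a fragment fold of 4.39 and an interval from 2.14 to 10.1. With 5 FPKM added in place of 1, its log2 ratio was -0.49 and no longer past 2-fold. Psmb9 (ENSMUSG00000096727, chromosome 17, 34181987 to 34187764, minus strand) stood at 0.330 FPKM in telencephalon and 0.346 FPKM in whole body, on about 12 fragments in telencephalon and 14 in whole body. The interval of its fragment ratio, from 0.468 to 2.58, spans 1, so a difference was not detectable at this depth. Exons of Psmb9 and Tap1 overlap on opposite strands.

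Their constitutive counterparts were abundant and nearly level. Psmb5, which Psmb8 replaces, stood at 108 FPKM in telencephalon and 99.8 FPKM in whole body, and Psmb6, which Psmb9 replaces, at 214 FPKM in telencephalon and 194 FPKM in whole body. Psmb8 was thus 0.639% of the sum of Psmb8 and Psmb5 in telencephalon and 2.91% in whole body. Psmb9 was 0.154% of the sum of Psmb9 and Psmb6 in telencephalon and 0.178% in whole body. None of the 14 constitutive 20S genes differed by 2-fold, and their median log2 ratio was 0.02. Over all genes of 1 FPKM or more 21.2% were at least 2-fold lower and 9.39% at least 2-fold higher. The largest differences among them were in Psma3, at 11.9 FPKM in telencephalon and 23.3 FPKM in whole body, and Psma5, at 28.0 FPKM in telencephalon and 38.9 FPKM in whole body.

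The remaining inducible genes of this step differed among themselves. Psmb10, the third inducible catalytic subunit, stood at 2.68 FPKM in telencephalon and 7.72 FPKM in whole body, at least 2-fold lower with a log2 ratio of -1.25. Psme1 and Psme2 encode the PA28 activator that caps the proteasome. Psme1 stood at 38.3 FPKM in telencephalon and 34.2 FPKM in whole body, and Psme2 at 3.08 FPKM in telencephalon and 5.52 FPKM in whole body.

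Nlrc5 (ENSMUSG00000074151, chromosome 8, 94434356 to 94527272, plus strand), the class I transactivator, was the only member with a higher FPKM in telencephalon, at low levels. It stood at 0.140 FPKM in telencephalon and 0.0797 FPKM in whole body, from about 21 fragments in telencephalon and 14 in whole body. The fragment ratio of 1.94 had an interval from 0.939 to 4.12, which includes 1. Its paralogue Ciita, the class II transactivator, stood at 0.0268 FPKM in telencephalon and 0.0483 FPKM in whole body.

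Isoforms add a caution for the weak members, since part of their FPKM lies on transcripts that retain an intron and do not encode the protein. In H2-K1 the main coding isoform of 1619 bases carried 77.1% of the gene in telencephalon and 74.6% in whole body. In H2-D1 the isoform of 2102 bases carried 90.9% in telencephalon and 92.6% in whole body. Psmb8 came mainly from a coding isoform of 840 bases, with 91.6% in telencephalon and 92.3% in whole body.

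In Tap1 retained-intron isoforms carried 21.6% of the gene in telencephalon and 6.43% in whole body. None of these isoforms held more than about 5.3 fragments in telencephalon or 7.5 in whole body. The coding isoform of 2953 bases, which held the rest of Tap1 except for traces, had 0.637 FPKM in telencephalon and 1.35 FPKM in whole body. In Tap2 retained-intron RNA was 58.4% in telencephalon, on about 3.5 fragments, and 49.5% in whole body, on about 22.3. In Psmb9 it was 78.9% in telencephalon and 22.6% in whole body, so that the coding isoforms stood at 0.0694 FPKM in telencephalon and 0.268 FPKM in whole body. These Psmb9 isoforms rest on about 1.6 fragments in telencephalon and 8.1 in whole body.

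**Figure D3:**
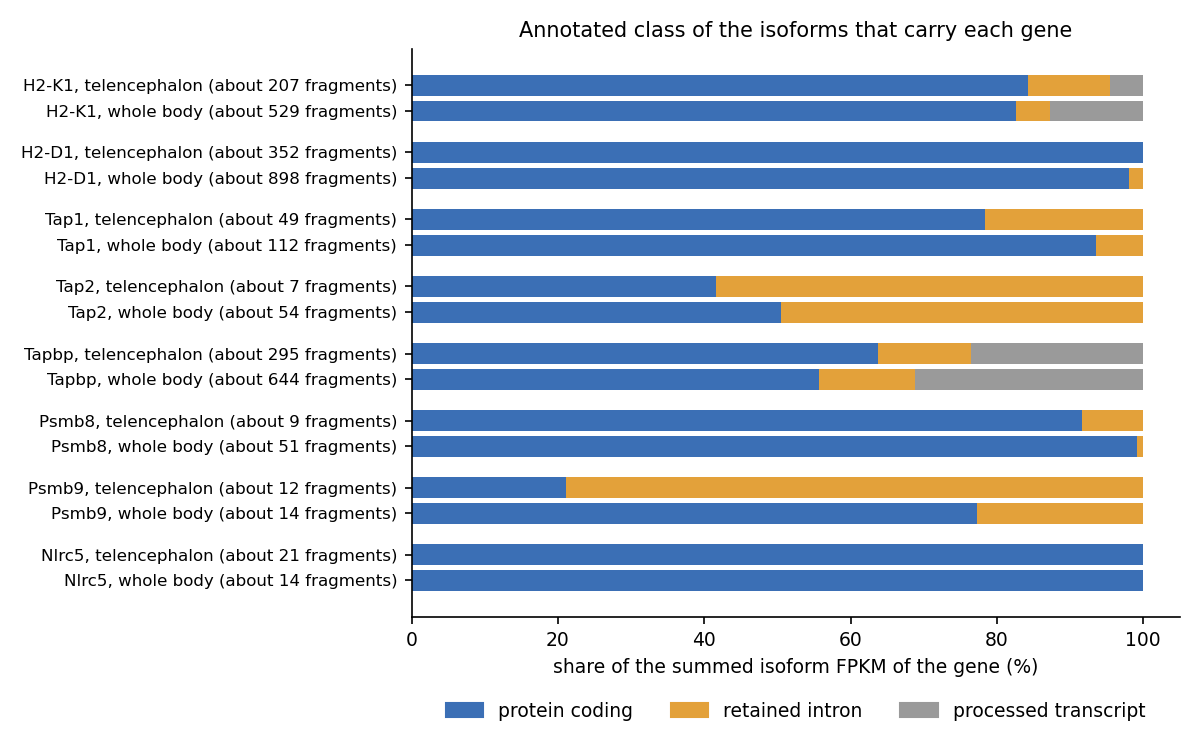
Share of each gene's summed isoform FPKM (horizontal axis, %) by annotated isoform class for the 8 members with several isoforms, with the telencephalon bar above the whole-body bar and the estimated fragments of the gene beside each label. Retained-intron isoforms take 78.9% of Psmb9 in telencephalon and 22.6% in whole body, on about 12 fragments of the gene in telencephalon and 14 in whole body.

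The transcription factors known to act at class I promoters were expressed in both libraries. Of 15 such genes, 3 had a ratio past 2-fold toward lower values and 0 toward higher, with a median log2 ratio of -0.51. Over all genes of 1 FPKM or more 21.2% were lower and 9.39% higher, so 3 of 15 is not a result about these factors. Irf1, which binds the interferon response element, stood at 0.613 FPKM in telencephalon and 3.99 FPKM in whole body. Nfkb1, a subunit that binds kappa B sites, stood at 7.56 FPKM in telencephalon and 22.5 FPKM in whole body. Irf2 was the other lower gene, chosen for naming after its value was seen, at 1.37 FPKM in telencephalon and 4.41 FPKM in whole body. The subunits of the factor that binds the Y box were higher in FPKM by less than 2-fold, with Nfya at 74.9 FPKM in telencephalon and 50.4 FPKM in whole body, and Nfyc at 35.7 FPKM in telencephalon and 26.5 FPKM in whole body. By fragments the ratios were smaller, at 1.27 for Nfya and 1.12 for Nfyc. For Nfyb, named as the remaining subunit, the fragment ratio was 1.02, with an interval from 0.927 to 1.13 that includes 1.

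Interferon is the main inducer of class I genes, and of its 8 listed ligand genes none reached 1 FPKM, with highest values of 0.126 FPKM in telencephalon and 0.143 FPKM in whole body, and 7 of the 8 were listed at 0 in each library. Receptor and kinase genes were present, with 2 of 7 at least 2-fold lower. Over all genes of 1 FPKM or more 21.2% were, so 2 of 7 is not a result about these genes. The 2 were Jak1, at 33.5 FPKM in telencephalon and 93.9 FPKM in whole body, and Ifngr1, at 4.01 FPKM in telencephalon and 11.99 FPKM in whole body. Ifnar1, a receptor chain for type I interferon, stood at 25.3 FPKM in telencephalon and 32.6 FPKM in whole body. Of 23 interferon-stimulated genes 10 reached 1 FPKM, and 6 of these were at least 2-fold lower and none at least 2-fold higher. Most of the 6, Ifi27 among them, reached 1 FPKM only in whole body. The shares over all genes of 1 FPKM or more were 21.2% lower and 9.39% higher. Over all 23 the median log2 ratio was -0.48, with 21 below 0 and 2 above, and over the 10 it was -1.92. The share of all genes below 0 was not computed, so the 21 have no background beside them. With TPM, which brings more genes past the floor, 10 of the 23 were lower, and with 5 FPKM added in place of 1 there were 3. Isg15, named after its value was seen, was on the higher side, at 2.30 FPKM in telencephalon and 0.706 FPKM in whole body, with a log2 ratio of 0.95. Ifitm3, which blocks virus entry, stood at 3.73 FPKM in telencephalon and 36.1 FPKM in whole body, and Ifi27 at 0.532 FPKM in telencephalon and 10.5 FPKM in whole body.

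Other heavy chains that pair with the B2m protein also differed between the libraries, mostly toward lower values in telencephalon. Of 16 further class I genes of the H2 region, 8 reached 1 FPKM, of which 5 were at least 2-fold lower and 1 at least 2-fold higher. The shares over all genes of 1 FPKM or more were 21.2% lower and 9.39% higher. Over all 16 the median log2 ratio was -0.45, with 13 below 0, 2 above and 1 at 0, and over the 8 it was -1.28. The share of all genes below 0 was not computed, so the 13 have no background beside them. H2-Q10, H2-Q7, H2-T10 and H2-T24 reached 1 FPKM only in whole body. H2-Q10, which encodes a class I molecule that mouse liver secretes, stood at 0.286 FPKM in telencephalon and 11.3 FPKM in whole body. H2-T22, a ligand of gamma delta T cell receptors, stood at 1.55 FPKM in telencephalon and 5.67 FPKM in whole body, and H2-T24 at 0.286 FPKM in telencephalon and 4.37 FPKM in whole body. The higher gene, H2-Bl, named after its value was seen, stood at 1.68 FPKM in telencephalon and 0.154 FPKM in whole body, on about 19 fragments in telencephalon and 3 in whole body. Of the stretches of H2-Q10, 80.9% occur in no other gene.

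Of 7 class I-like genes outside the H2 region, 5 reached 1 FPKM and 4 of these were at least 2-fold lower, beside 21.2% over all genes of 1 FPKM or more. All 4 reached 1 FPKM only in whole body, so they entered the count through the library where they are high. The median log2 ratio over all 7 was -1.26. Fcgrt, the heavy chain of the neonatal Fc receptor, which also needs the B2m protein, stood at 0.689 FPKM in telencephalon and 16.02 FPKM in whole body, 23.2-fold lower. Mr1, which presents microbial vitamin metabolites, stood at 0.229 FPKM in telencephalon and 2.74 FPKM in whole body. Cd1d1, which presents lipids, stood at 6.54 FPKM in telencephalon and 4.48 FPKM in whole body.

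Markers of other cell types also differed between the libraries. Over all genes of 1 FPKM or more 21.2% were at least 2-fold lower. Of 15 macrophage markers 13 were at least 2-fold lower in telencephalon, with a summed level of 28.1 FPKM there and 199 FPKM in whole body, and none was at 0. Of 12 endothelial markers 10 were lower, with 85.6 FPKM in telencephalon and 255 FPKM in whole body, and none at 0. All 8 mesenchyme markers were lower, with 17.1 FPKM in telencephalon and 1679.6 FPKM in whole body, and none at 0. All 8 hepatoblast markers were lower, with 5.26 FPKM in telencephalon and 2162 FPKM in whole body, Apoa2 and Serpina1a being listed at 0 in telencephalon. All 8 erythroid markers were lower, with 22.3 FPKM in telencephalon and 778 FPKM in whole body. None of the 8 lymphocyte markers reached 1 FPKM in either library. The telencephalon sum was 14.2% of the whole-body sum for macrophage markers and 33.5% for endothelial markers. For mesenchyme, hepatoblast and erythroid markers it was 1.02%, 0.243% and 2.86%. Single genes spread widely, from 2.59% to 85.2% among macrophage markers and from 12.1% to 89.9% among endothelial markers. B2m stood at 9.77% of its whole-body FPKM, H2-K1 at 47.6% and H2-D1 at 52.1%. The part of each cell type in the class I values was not tested.

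**Figure D4:**
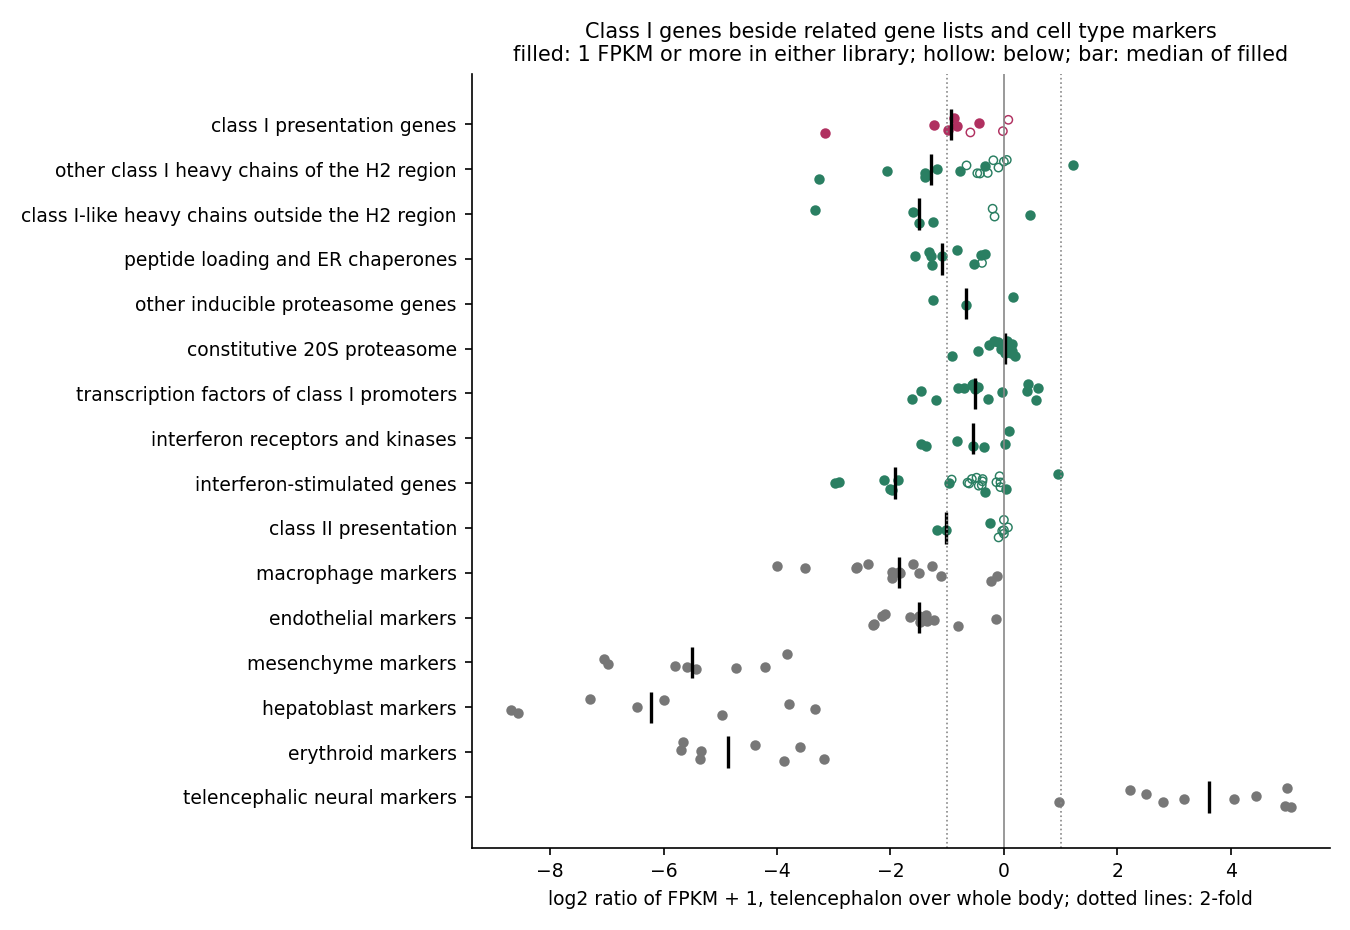
Log2 ratio of FPKM + 1, telencephalon over whole body, for the class I presentation genes, 9 related gene lists and 6 cell type marker lists, with 1 point a gene (filled, 1 FPKM or more in either library; hollow, below), the median of the filled points as a bar and 2-fold as dotted lines. B2m lies apart from the other members at -3.15, and the constitutive proteasome genes centre on 0.02.

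Among 584 genes outside the lists with 100 FPKM or more in whole body, those whose ratio was closest to that of B2m were Crabp1, Id3 and Anxa2. Crabp1 stood at 19.0 FPKM in telencephalon and 174 FPKM in whole body, Id3 at 11.1 FPKM in telencephalon and 100.7 FPKM in whole body, and Anxa2 at 19.6 FPKM in telencephalon and 196.5 FPKM in whole body. Their log2 ratios differed from that of B2m by 0.03, 0.08 and -0.10. With 2 libraries this likeness is a single ratio.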

How the data were processed

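The authors deposited FPKM per gene and FPKM per isoform, with a column per library. The tools named are TopHat, Cufflinks and Cuffdiff and the build is GRCm38, per the submitters' processing notes, and versions and the annotation release are not given in the sources used here. Libraries were made with a TruSeq RNA v2 kit, per the labels' protocols.

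From these values log2 ratios, telencephalon over whole body, were computed after adding 1 FPKM, and a gene counted as measured at 1 FPKM or more in either library. With 1 library per group no test was run. FPKM are not counts. Fragments were estimated from the low steps of single-isoform genes, with 335 bases subtracted from the transcript length in telencephalon and 323 in whole body. In transcripts of 2000 bases or more, 86.4% of 1581 telencephalon values and 88.8% of 1354 whole-body values were whole within 0.1 fragments, where chance gives 20%. Coordinates, isoform lengths and classes come from GENCODE M21, of the same build, and 42276 genes matched. Promoters come from RefSeq. The fit and the fold counts were also run on simulated data that held counting error only. Those data had no division of reads among isoforms or paralogues, so they do not check the values of the weak members. Python 3.11.15, pandas 2.3.3 and scipy 1.17.1 were used.

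The members, lists and motifs were chosen with earlier results of these data known, and the motif spacing after the promoters were read. Of 202 list entries 4 are not analysed here. Genes named from a list are the measured 2 with the highest summed FPKM and 2 with the largest absolute log2 ratio, plus Psmb5, Psmb6 and Ciita, unless the text says otherwise, and for likeness the 3 genes closest to B2m in log2 ratio.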

Additional observations from a re-analysis of the deposited data

How the results depend on the processing

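No paired analysis was possible because each group has 1 library, and for the same reason no library could be left out. In 7 alternatives the log2 ratio of B2m lay between -3.33 and -2.59, that of H2-K1 between -1.06 and -0.73 and that of H2-D1 between -0.93 and -0.68. That of Psmb9 lay between -0.055 and 0.039. A change of floor does not enter the ratio of a single gene, and no member has an isoform under 300 bases. These ranges therefore reflect only the added FPKM, the common upper quartile and TPM. With 5 FPKM added in place of 1, the members' median log2 ratio was -0.64 and 1 member, B2m, was at least 2-fold lower, with 1490 genes lower and 800 higher over all genes and 11 lower and 0 higher in the related gene lists, which leave out the cell type markers. With a floor of 5 FPKM, 1 member was lower, 2065 genes were lower over all genes, and the related lists had 14 lower and 0 higher. Adding 0.1 FPKM gave 3 members lower (H2-K1 joined B2m and Psmb8) and 2 genes of the related lists higher. Without a floor the members' median was -0.82. Rescaling to TPM moved the median of all genes to -0.02, with 2126 genes higher over all genes and 2 in the related lists, and the members' median to -0.87. A common upper quartile and leaving out isoforms under 300 bases left 2 members lower. Depth limits Tap2, Psmb8, Psmb9 and Nlrc5, with between 7 and 21 estimated fragments in telencephalon.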

Other observations

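Of 9 class II presentation genes 3 reached 1 FPKM, and 2 of these, which did so only in whole body, were at least 2-fold lower in telencephalon. The share over all genes of 1 FPKM or more was 21.2%. The median log2 ratio over all 9 was -0.03. Cd74, the invariant chain that guides class II molecules, stood at 0.123 FPKM in telencephalon and 1.54 FPKM in whole body, and H2-Oa at 0.0491 FPKM in telencephalon and 1.14 FPKM in whole body. H2-DMa, which loads peptides on class II, stood at 1.98 FPKM in telencephalon and 2.51 FPKM in whole body. H2-Eb1, H2-DMb1 and H2-Ob were listed at 0 in both libraries.

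None of 8 genes of receptors that bind class I or signal from it reached 1 FPKM, and 3 had a log2 ratio below 0, 3 above and 2 at 0. Pirb, a class I receptor described in mouse neurons, stood at 0.468 FPKM in telencephalon and 0.272 FPKM in whole body. Cd247, the zeta chain of the T cell receptor complex, stood at 0.919 FPKM in telencephalon and 0.306 FPKM in whole body. The intervals of their fragment ratios, from 0.940 to 3.49 for Pirb and from 0.814 to 4.82 for Cd247, include 1. Both were named after their values were seen.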
